A study of Homo sapiens with 9 samples.

Results

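Homologous recombination repairs broken and stalled DNA by copying an intact sister strand, and the Fanconi pathway prepares crosslinked DNA for that repair. A set of 40 genes of these pathways was taken by gene symbol from the deposited expression table, which lists 61806 genes, and all 40 were found in it. The set was measured in 9 messenger RNA libraries of 786-O cells, a human clear cell renal carcinoma line that lacks functional VHL. Polyadenylated RNA had been sequenced, and the submitters compared cells depleted of TRIM28 or of PARP1 with control cells. The first group, TRIM28 knockdown, holds 3 libraries of cells given a TRIM28 siRNA. PARP1 knockdown holds 3 libraries of cells given a PARP1 siRNA. Control holds 3 libraries of cells given a negative control siRNA, with the genotype wild type. The labels also call each reagent an shRNA and the control cells parental, and which of these holds is not settled by them. All 9 libraries carry batch 1, no time after silencing is given, and nothing says that replicates came from separate cultures, so a p-value speaks only of the spread among these libraries, which may be technical.

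In homologous recombination, the kinases ATM and ATR signal a break or a stalled fork, nucleases cut back one strand at the break, BRCA1, PALB2 and BRCA2 prepare the exposed strand for pairing, and strand invasion and dissolution finish the repair. In the Fanconi pathway, a core complex with the ubiquitin-conjugating enzyme UBE2T marks the FANCD2 and FANCI pair, which brings nucleases to the crosslink. PARP1 binds single-strand breaks, and cells that lack homologous recombination are known to depend on it. TRIM28 is a corepressor on chromatin and a substrate of ATM after damage. Clear cell renal carcinoma is known mainly for loss of VHL and of chromatin regulators, and less for mutation of the genes described here.

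Both silenced genes were low in the libraries labelled for them. TRIM28 stood at 15.1% of the control mean in TRIM28 knockdown and PARP1 at 3.11% in PARP1 knockdown, while PARP1 stood at 52.9% of control in TRIM28 knockdown and TRIM28 at 124% in PARP1 knockdown. Total counts ran from 12840619 to 16346186 in TRIM28 knockdown, from 11963110 to 15629533 in PARP1 knockdown and from 18042542 to 20224374 in control. The 9 renal and epithelial markers checked summed to between 6020.96 and 8105.07 CPM (counts scaled to the size of the library) per library, 2 leukocyte markers (PTPRC and CD3E) were at 0 in every library, and 3 endothelial and 4 fibroblast markers summed to at most 1.29 and 4.21 CPM. A filter on low counts kept 13562 genes, among them 39 of the 40. RAD50, with 2 to 10 counts per library, did not pass.

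The words rose and fell are kept for genes whose edgeR quasi-likelihood p, adjusted by Benjamini-Hochberg over all tested genes, lay under 0.05. Errors after a log2 fold change are standard errors with n = 3 libraries per group, CPM values are scaled by TMM factors, and the 3 libraries of a group are given in the order of their replicate numbers. Both comparisons with control use the same 3 control libraries. A lower level in such bulk libraries cannot tell fewer cells holding a transcript apart from less of it per cell.

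Genes of resection, checkpoint signaling and crosslink repair, namely EXO1, FANCI, FANCD2, SLX4 and CHEK1, fell in TRIM28 knockdown. These 5 of 39 make 12.8%, against 17.5% of all tested genes called lower, and 0 of 39 rose, against 10.3% of all tested genes. The median log2 fold change was -0.24 over the 39 genes and -0.02 over all tested genes. In PARP1 knockdown these 5 genes fell too, together with RAD54L, RMI1, DNA2, RBBP8, BRCA1, RAD52 and FANCC. Those 12 of 39 make 30.8%, against 32.2% of all tested genes called lower. XRCC3, FANCG, UBE2T and FANCE rose in PARP1 knockdown, 4 genes or 10.3% of the 39, against 27.1% of all tested genes. The median was -0.33 over the 39 and -0.07 over all tested genes. In this fit the shares called lower are thus near or below the background of each comparison, and 23 of the 39 passed the test in neither knockdown.

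The split between higher and lower depended on the scaling. Gene length and GC content trended with the libraries, as set out further on, and with both trends removed from each library 2 of the 39 rose and 2 fell in TRIM28 knockdown, against 10.8% and 10.6% of all tested genes. In PARP1 knockdown 11 rose and 4 fell in that fit, against 24% and 22.7% of all tested genes. Scaled by library totals instead of TMM factors, 0 rose and 7 fell in TRIM28 knockdown, against 3.35% and 21.1% of all tested genes. In PARP1 knockdown 2 rose and 21 fell, against 14.9% and 42.8%, so that the 53.8% of the 39 called lower stood above the background in that scaling. That scaling put the median of all tested genes at -0.18 and -0.39, against medians of -0.40 and -0.67 over the 39.

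**Figure D1:**
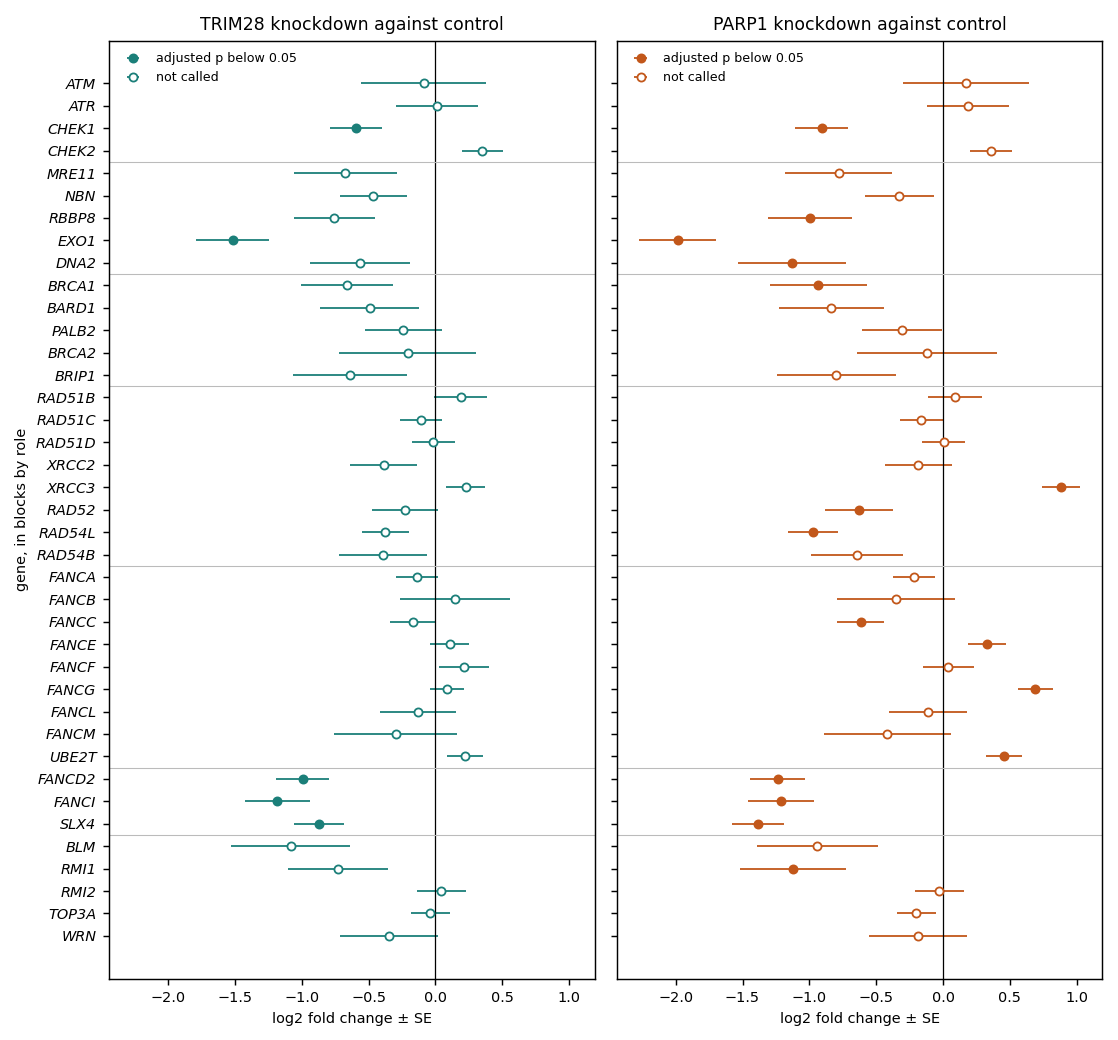
Log2 fold change against control (x axis, with standard error, n = 3 libraries per group) of the 39 genes that passed the filter (y axis, in blocks by role), for TRIM28 knockdown on the left and PARP1 knockdown on the right. Filled points passed the test at an adjusted p below 0.05: 5 genes lower in TRIM28 knockdown, and 12 lower and 4 higher in PARP1 knockdown.

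Directly compared, TRIM28 knockdown had more RAD54L and less XRCC3 and FANCG than PARP1 knockdown. These were 1 of 39 higher and 2 of 39 lower, against 13.2% and 11.9% of all tested genes, with a median of 0.10 over the 39 and 0.03 over all. With length and GC trends removed the same 3 passed in the same direction, 1 higher and 2 lower, against 6.86% and 6.84% of all tested genes. Without PARP1 knockdown replicate 1 the median was 0.03, and 5 of the 39 were higher and 3 lower, against 17.7% and 16.1% of all tested genes. Counting only genes whose libraries did not overlap between groups, 1 of the 39 was higher and 10 lower in TRIM28 knockdown than in control, against 21.2% and 25.3% of all tested genes. The same count gave 5 higher and 11 lower in PARP1 knockdown than in control, against 30.5% and 33%, and 3 higher and 3 lower in TRIM28 than in PARP1 knockdown, against 20.7% and 18.7%. The smallest p an exact two-sided permutation test allows for 3 libraries against 3 is 0.1, so non-overlap alone cannot pass 0.05.

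Promoters of 5 genes are shown because the results turn on these genes: EXO1 and SLX4 passed the test in both knockdowns in every fit that left out a library and with the length and GC trends removed, FANCD2 fell in both, and XRCC3 and FANCG separated the knockdowns. The sequences are from RefSeq (GRCh38.p14), 250 bases before to 50 after an annotated start, on the strand of the gene. Capitals mark letters found by a search of both strands for E2F-like letters (TTTCCCGC, TTTGGCGC, TTTCGCGC or TTTGCCGC), for CCAAT and for the cell cycle homology letters TTTGAA; none of these words contains another. E2F factors act on many S phase genes, and NF-Y binds CCAAT boxes.
EXO1, chr1:241847954-241848253, plus strand: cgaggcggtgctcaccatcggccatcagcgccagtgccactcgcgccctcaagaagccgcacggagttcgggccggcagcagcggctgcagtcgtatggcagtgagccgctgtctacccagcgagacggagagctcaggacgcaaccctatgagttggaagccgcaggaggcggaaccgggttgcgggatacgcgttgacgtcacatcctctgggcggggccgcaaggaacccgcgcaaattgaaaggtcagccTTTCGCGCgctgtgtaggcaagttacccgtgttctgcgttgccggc
FANCD2, chr3:10026187-10026486, plus strand: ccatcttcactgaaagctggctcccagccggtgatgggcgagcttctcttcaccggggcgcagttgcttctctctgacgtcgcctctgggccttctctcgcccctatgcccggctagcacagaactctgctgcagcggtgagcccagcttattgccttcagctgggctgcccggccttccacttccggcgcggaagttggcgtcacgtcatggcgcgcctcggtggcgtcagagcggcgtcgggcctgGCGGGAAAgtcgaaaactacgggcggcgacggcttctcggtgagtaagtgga
SLX4, chr16:3611557-3611856, minus strand: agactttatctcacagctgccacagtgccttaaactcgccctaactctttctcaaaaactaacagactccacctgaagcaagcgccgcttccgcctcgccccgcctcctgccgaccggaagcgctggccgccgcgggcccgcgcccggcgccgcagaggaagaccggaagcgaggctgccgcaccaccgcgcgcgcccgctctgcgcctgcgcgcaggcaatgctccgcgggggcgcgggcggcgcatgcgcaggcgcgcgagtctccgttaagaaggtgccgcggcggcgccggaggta
XRCC3, chr14:103715402-103715701, minus strand: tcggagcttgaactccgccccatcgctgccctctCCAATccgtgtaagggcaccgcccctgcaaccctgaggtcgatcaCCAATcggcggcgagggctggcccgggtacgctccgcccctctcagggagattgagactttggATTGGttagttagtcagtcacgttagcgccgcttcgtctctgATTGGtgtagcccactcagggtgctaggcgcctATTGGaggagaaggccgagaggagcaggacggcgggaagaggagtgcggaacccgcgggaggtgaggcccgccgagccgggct
FANCG, chr9:35079893-35080192, minus strand: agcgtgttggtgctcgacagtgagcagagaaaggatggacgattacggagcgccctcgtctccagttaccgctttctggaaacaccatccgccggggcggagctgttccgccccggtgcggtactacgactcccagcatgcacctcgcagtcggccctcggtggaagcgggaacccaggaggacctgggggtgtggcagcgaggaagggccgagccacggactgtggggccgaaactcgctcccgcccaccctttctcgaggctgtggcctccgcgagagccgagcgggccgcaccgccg
The printed EXO1 window held 1 E2F-like word in the direction of the gene. A further EXO1 window, chr1:241848481-241848780, is not printed and held none of the words searched. The FANCD2 window held 1 E2F-like word in the opposite direction across the start, so that it reads GCGGGAAA as printed. The XRCC3 window held CCAAT 5 times over both strands, and the SLX4 and FANCG windows held none of the words searched. Promoters were matched for 34 of the 40 genes. Of these, 6 (17.6%) had an E2F-like word in a window: EXO1, FANCD2, RMI1, FANCC, FANCA and XRCC2. Among all 35116 RefSeq promoters of the same length, 3.31% had one. CCAAT stood in a window of 15 of the 34 genes (44.1%) and in 34.6% of all promoters, and TTTGAA in 4 of the 34 (11.8%) and in 15.2% of all promoters. Some of the 34 genes have more than 1 window, 47 in all, so their shares are not per window. A match describes letters and not a bound site.

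Levels of the 40 genes spanned 3 orders of magnitude. On the length-corrected FPKM scale, control libraries had most of UBE2T, the Fanconi E2 enzyme, at 33.5 ± 0.682 FPKM (SD, n = 3). TOP3A, the topoisomerase of the dissolution complex, followed at 12.5 ± 0.307 FPKM (SD, n = 3) and FANCG, a core scaffold protein, at 10.9 ± 0.189 FPKM (SD, n = 3). RAD54L, FANCE and XRCC3 came next, at 6.09, 5.77 and 4.90 FPKM. At the low end were BRCA2 at 0.0533, RAD50 at 0.0433 and ATM at 0.0333 FPKM. In all, 21 of the 40 genes reached 1 FPKM in control and 16 stayed below 0.5, with a median of 1.03 FPKM over the 40 and 2.73 over all tested genes. The order is resolved only in part: of 39 neighbouring pairs, 7 differed by more than their summed SDs, among them each step between UBE2T, TOP3A, FANCG and RAD54L. After the step below the top 7 genes, the only other was from BLM to FANCB, so the order among CHEK1, FANCA, SLX4, RAD51D and EXO1, for example, was not resolved.

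Within TRIM28 knockdown the 3 highest were UBE2T, TOP3A and FANCG, at 35.0, 10.9 and 10.4 FPKM. Within PARP1 knockdown FANCG, at 14.0 FPKM, stood above TOP3A, at 8.76. EXO1 ranked 20 of the 40 in both knockdowns and 14 in control. The authors' FPKM divides by the summed length of all annotated exons, which for FANCL is 37977 bases against 1698 in its longest transcript in the GENCODE annotation, and for ATM 39184 against 13147. The low places of such genes rest in part on that length. Counts were few for many: 9 of the 40 genes had fewer than 50 counts in every library, and 18 had at least 50 in every library.

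**Figure D2:**
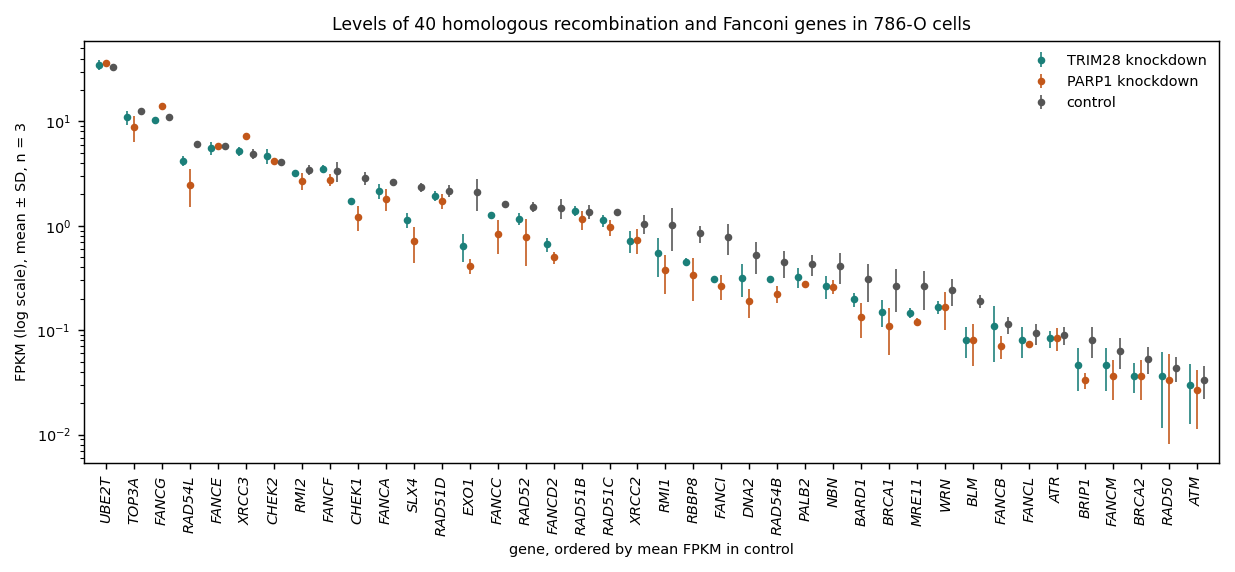
Mean FPKM (y axis, log scale, bars are the SD of 3 libraries) of all 40 genes, ordered along the x axis by their control mean, in TRIM28 knockdown, PARP1 knockdown and control. Levels run from 33.5 FPKM for UBE2T to 0.0333 FPKM for ATM in control.

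Among the damage kinases, CHEK1, the ATR effector kinase (ENSG00000149554, chromosome 11, 125625163 to 125676255, plus strand, GRCh38), fell in both knockdowns. It stood at 9.40, 9.96 and 9.34 CPM in TRIM28 knockdown, at 6.95, 10.1 and 5.94 CPM in PARP1 knockdown and at 15.4, 15.3 and 12.6 CPM in control. Every knockdown library was below every control library. In TRIM28 knockdown the log2 fold change was -0.59 ± 0.19 (edgeR adjusted p = 0.0233), 66.3% of control. This call was lost when control replicate 1 or 2 was left out (edgeR adjusted p = 0.116 and 0.107), or any of the 3 TRIM28 knockdown replicates (0.0728, 0.0743 and 0.0851). In PARP1 knockdown the log2 fold change was -0.91 ± 0.20 (edgeR adjusted p = 0.000347), 53.2% of control. With length and GC trends removed CHEK1 passed in neither, at -0.24 and -0.27.

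The other kinases did not pass. CHEK2, the ATM effector kinase, stood at 24.6, 19.0 and 19.1 CPM in TRIM28 knockdown, at 20.3, 20.2 and 22.5 CPM in PARP1 knockdown and at 15.8, 16.3 and 17.0 CPM in control, with no overlap between either knockdown and control. Its log2 fold changes were 0.35 ± 0.15 in TRIM28 knockdown and 0.36 ± 0.16 in PARP1 knockdown (edgeR adjusted p = 0.0883 and 0.0511), and both passed with length and GC trends removed, at 0.55 and 0.82. The apical kinases were low in counts. ATM had 8 to 28 counts in TRIM28 knockdown, 9 to 24 in PARP1 knockdown and 15 to 29 in control, and ATR had 31 to 35 in TRIM28 knockdown, 19 to 42 in PARP1 knockdown and 40 to 56 in control. Their log2 fold changes were -0.09 ± 0.46 and 0.01 ± 0.31 in TRIM28 knockdown and 0.17 ± 0.47 and 0.18 ± 0.31 in PARP1 knockdown. With trends removed ATM and ATR passed as higher in PARP1 knockdown, at 1.16 and 1.18.

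**Figure D3:**
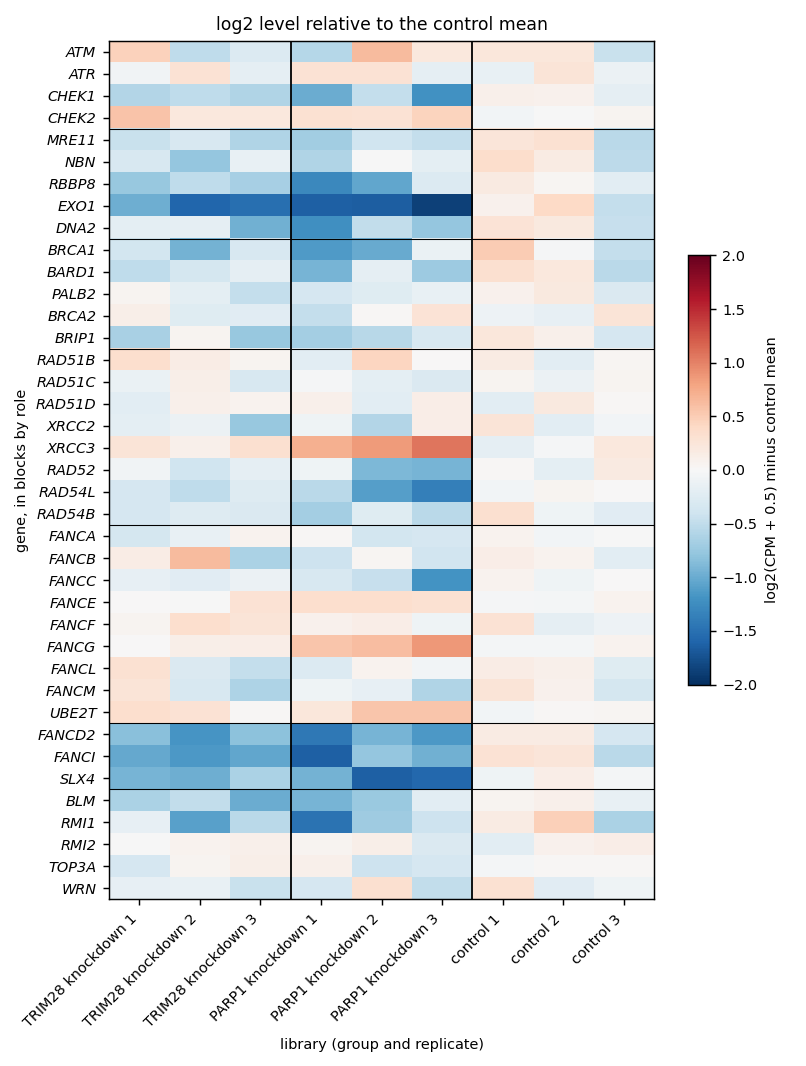
Difference of log2(CPM + 0.5) from the control mean (colour, blue lower and red higher) for the 39 genes that passed the filter (rows, in blocks by role) in each of the 9 libraries (columns: TRIM28 knockdown, PARP1 knockdown, control). EXO1, FANCD2, FANCI and SLX4 were below the control mean in all 6 knockdown libraries, and XRCC3 and FANCG above it in all 3 PARP1 knockdown libraries.

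Of the resection and MRN genes tested, 1 of 5 fell in TRIM28 knockdown and 3 of 5 in PARP1 knockdown, against 17.5% and 32.2% of all tested genes, and none rose, with medians of -0.68 and -0.996. Once length and GC trends were removed, EXO1 alone of the 5 passed as lower in each, and NBN passed as higher in PARP1 knockdown. The counts for the other roles are read against the same 17.5% and 32.2% lower, and 10.3% and 27.1% higher, and none of these small groups was tested as a group. EXO1 had the largest change of the 39 genes in both comparisons with control. EXO1, the exonuclease of long-range resection (ENSG00000174371, chromosome 1, 241847967 to 241895148, plus strand), had 3.55, 2.15 and 2.29 CPM in TRIM28 knockdown, 2.05, 2.03 and 1.68 CPM in PARP1 knockdown and 7.89, 9.97 and 5.21 CPM in control. All 6 knockdown libraries lay below the lowest control library. The log2 fold change was -1.52 ± 0.27 in TRIM28 knockdown (edgeR adjusted p = 0.000239), 34.6% of control, and -1.99 ± 0.29 in PARP1 knockdown (edgeR adjusted p = 2.53e-06), 24.99% of control. With length and GC trends removed it remained lower at -1.27 and -1.50 (edgeR adjusted p = 0.00126 and 0.000102), and no library left out ended either call.

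RBBP8, which encodes CtIP, the factor that starts resection (ENSG00000101773, chromosome 18, 22798261 to 23026488, plus strand), stood at 2.05, 2.55 and 2.23 CPM in TRIM28 knockdown, at 1.26, 1.61 and 3.07 CPM in PARP1 knockdown and at 4.38, 3.92 and 3.23 CPM in control. The control libraries were above all others, narrowly for PARP1 knockdown replicate 3. It fell in PARP1 knockdown by 1.00 ± 0.32 on the log2 scale (edgeR adjusted p = 0.00867), a call lost without PARP1 knockdown replicate 1 (-0.73, adjusted p = 0.0556). In TRIM28 knockdown it reached -0.76 ± 0.30 (edgeR adjusted p = 0.0611). DNA2, the helicase-nuclease that also resects at long range, had 1.87, 1.91 and 0.904 CPM in TRIM28 knockdown, 0.662, 1.44 and 1.09 CPM in PARP1 knockdown and 2.79, 2.61 and 1.47 CPM in control. The PARP1 knockdown libraries lay just below the lowest control library, and TRIM28 knockdown overlapped control. It fell in PARP1 knockdown by 1.13 ± 0.40 on the log2 scale (edgeR adjusted p = 0.0183), and lost the call without control replicate 1 or 2 (adjusted p = 0.0924 and 0.0717, edgeR) or PARP1 knockdown replicate 1 (0.0877). Neither RBBP8 nor DNA2 passed with the trends removed, at -0.48 and -0.67 in PARP1 knockdown.

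MRE11 and NBN, subunits of the MRN complex that binds broken ends, did not pass. MRE11 had log2 fold changes of -0.68 ± 0.39 in TRIM28 knockdown and -0.78 ± 0.40 in PARP1 knockdown, with 16 to 18 counts per library in TRIM28 knockdown, 11 to 14 in PARP1 knockdown and 22 to 46 in control. NBN stood at 5.42, 3.83 and 6.15 CPM in TRIM28 knockdown, at 4.37, 6.85 and 5.94 CPM in PARP1 knockdown and at 8.95, 7.79 and 4.65 CPM in control, where replicate 3 overlapped the knockdowns. RAD50, the remaining subunit, had 0.381 ± 0.251 CPM in TRIM28 knockdown, 0.416 ± 0.280 CPM in PARP1 knockdown and 0.413 ± 0.0826 CPM in control (SD, n = 3 each), and was not tested.

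Of the BRCA mediators, which act on the resected single strand, 0 of 5 passed in TRIM28 knockdown and 1 of 5, BRCA1, in PARP1 knockdown. BRCA1, a ubiquitin ligase subunit that promotes resection and recruits PALB2 (ENSG00000012048, chromosome 17, 43044295 to 43170245, minus strand), had 2.37, 1.43 and 2.47 CPM in TRIM28 knockdown, 1.19, 1.35 and 2.87 CPM in PARP1 knockdown and 4.76, 3.15 and 2.17 CPM in control. PARP1 knockdown replicate 3 lay above control replicate 3, so the groups overlapped. The log2 fold change in PARP1 knockdown was -0.93 ± 0.36 (edgeR adjusted p = 0.0292). It was lost without control replicate 1 or 2 (-0.56 and -0.94, adjusted p = 0.25 and 0.0514 by edgeR) and without PARP1 knockdown replicate 1 or 2 (-0.69 and -0.78, adjusted p = 0.113 and 0.109). It turned to 0.12 with length and GC trends removed (edgeR adjusted p = 0.793). In TRIM28 knockdown BRCA1 reached -0.66 ± 0.34 (edgeR adjusted p = 0.15).

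BARD1, the partner of BRCA1 in the ligase, had similar levels in CPM, 1.46 ± 0.222 in TRIM28 knockdown, 1.16 ± 0.472 in PARP1 knockdown and 2.06 ± 0.752 in control (SD, n = 3 each), with log2 fold changes of -0.49 ± 0.37 and -0.84 ± 0.39 that did not pass. PALB2, the bridge between BRCA1 and BRCA2, had -0.24 ± 0.29 and -0.31 ± 0.30. BRIP1, a helicase bound by BRCA1 and also known as FANCJ, had -0.64 ± 0.43 and -0.80 ± 0.45. BRCA2, a mediator of strand exchange, had 5 to 19 counts per library and log2 fold changes of -0.21 ± 0.51 in TRIM28 knockdown and -0.12 ± 0.52 in PARP1 knockdown. All 5 mediators were below 0 on the log2 scale in both knockdowns. So were 29 of the 39 genes in each, and 6963 and 7122 of the 13562 tested genes in TRIM28 and PARP1 knockdown. With the trends removed, all 5 moved to 0 or above in PARP1 knockdown except BARD1, at -0.05. In TRIM28 knockdown BRCA1, BARD1, PALB2, BRCA2 and BRIP1 were then at -0.04, 0.0003, 0.22, 0.26 and -0.03.

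Of RAD51B, RAD51C, RAD51D, XRCC2 and XRCC3, 0 of 5 passed in TRIM28 knockdown and 1 of 5 in PARP1 knockdown. XRCC3, which pairs with RAD51C and acts in strand exchange (ENSG00000126215, chromosome 14, 103697609 to 103715504, minus strand), rose in PARP1 knockdown. Its libraries held 39.4, 35.1 and 41.0 CPM in TRIM28 knockdown, 54.0, 59.6 and 69.0 CPM in PARP1 knockdown and 28.7, 32.1 and 38.1 CPM in control. The 3 PARP1 knockdown libraries stood above the other 6, while TRIM28 knockdown overlapped control. The log2 fold change in PARP1 knockdown was 0.88 ± 0.14 (edgeR adjusted p = 1.12e-05), 185% of control, and 0.73 with trends removed (edgeR adjusted p = 9.83e-05). In TRIM28 knockdown it was 0.23 ± 0.14 (edgeR adjusted p = 0.249). Between the knockdowns XRCC3 was lower in TRIM28 than in PARP1 knockdown, at -0.66 ± 0.14 (edgeR adjusted p = 0.00258), in every fit without a library.

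RAD51B, RAD51C, RAD51D and XRCC2, which form a complex that promotes strand exchange, passed in neither knockdown. RAD51C stood at 18.4 ± 2.84 CPM in TRIM28 knockdown, 17.7 ± 1.73 CPM in PARP1 knockdown and 19.8 ± 1.38 CPM in control (SD, n = 3 each). RAD51D stood at 21.7 ± 2.56 CPM in TRIM28 knockdown, 22.01 ± 2.82 CPM in PARP1 knockdown and 21.96 ± 3.09 CPM in control (SD, n = 3 each). Per summed exon length, XRCC3 exceeded its partner RAD51C 4.75, 3.58 and 5.68 times in TRIM28 knockdown. The ratios were 6.04, 7.51 and 9.34 in PARP1 knockdown and 3.05, 3.84 and 4.02 in control. RAD51C has 16404 bases of summed exons against 2591 in its longest transcript, and XRCC3 has 7507 against 3668. The size of these ratios rests in part on that choice of length. RAD51B, RAD51C and RAD51D passed as higher in PARP1 knockdown with trends removed, at 0.89, 0.86 and 0.51, and RAD51B in TRIM28 knockdown at 0.62.

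RAD54L, the motor protein that promotes invasion of the sister strand (ENSG00000085999, chromosome 1, 46246461 to 46278480, plus strand), had 17.4, 15.4 and 18.5 CPM in TRIM28 knockdown, 15.2, 10.1 and 8.31 CPM in PARP1 knockdown and 21.3, 22.9 and 22.4 CPM in control. The 3 groups did not overlap one another, and the PARP1 knockdown libraries spread most. It fell in PARP1 knockdown, by 0.97 ± 0.18 on the log2 scale (edgeR adjusted p = 6.96e-05), 50.4% of control, with -0.95 once trends were removed (edgeR adjusted p = 6.13e-05). In TRIM28 knockdown it reached -0.37 ± 0.18 (edgeR adjusted p = 0.117). The knockdowns differed by 0.60 ± 0.19, TRIM28 over PARP1 knockdown (edgeR adjusted p = 0.0213). That difference was lost without TRIM28 knockdown replicate 1 or 3 (adjusted p = 0.0753 and 0.0991, edgeR) and without PARP1 knockdown replicate 2 or 3 (0.0948 and 0.118).

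RAD52, a strand annealing protein, had 5.79, 4.54 and 5.36 CPM in TRIM28 knockdown, 5.70, 3.04 and 2.97 CPM in PARP1 knockdown and 6.21, 5.28 and 6.96 CPM in control. One PARP1 knockdown library lay within the control range. Its log2 fold change in PARP1 knockdown was -0.63 ± 0.26 (edgeR adjusted p = 0.037), lost without control replicate 1 or 3 or PARP1 knockdown replicate 2 or 3 (adjusted p = 0.0942, 0.135, 0.162 and 0.14 by edgeR) and at -1.03 without PARP1 knockdown replicate 1. RAD54B, a relative of RAD54L, had 1.62 ± 0.0591 CPM in TRIM28 knockdown, 1.37 ± 0.291 CPM in PARP1 knockdown and 2.13 ± 0.544 CPM in control (SD, n = 3 each) and did not pass.

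**Figure D4:**
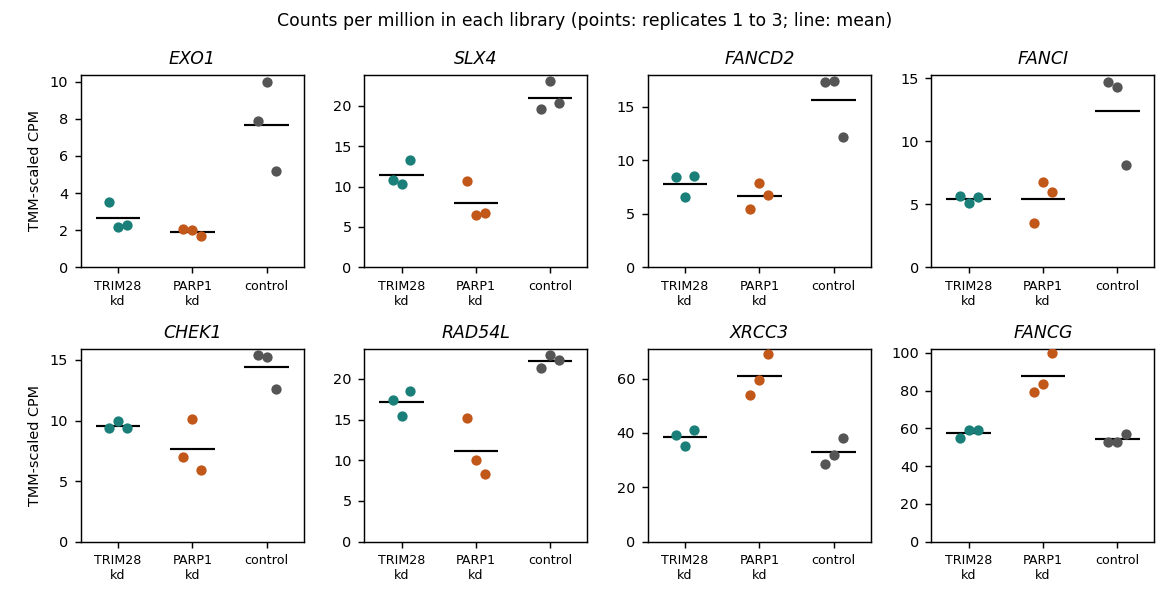
TMM-scaled CPM (y axis, from 0) of 8 genes in each library (points) with the group mean (line), for TRIM28 knockdown, PARP1 knockdown and control. EXO1, SLX4, FANCD2, FANCI and CHEK1 lie below control in both knockdowns, RAD54L is lowest in PARP1 knockdown, and XRCC3 and FANCG are highest there.

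Of the Fanconi core genes and UBE2T together, 0 of 9 passed in TRIM28 knockdown, and 3 rose and 1 fell in PARP1 knockdown. FANCG (ENSG00000221829, chromosome 9, 35073835 to 35080004, minus strand) held 54.7, 59.0 and 59.3 CPM in TRIM28 knockdown, 79.5, 83.4 and 99.8 CPM in PARP1 knockdown and 53.0, 52.6 and 57.3 CPM in control. Only the PARP1 knockdown libraries stood apart. The log2 fold change there was 0.69 ± 0.13 (edgeR adjusted p = 6.65e-05), 161% of control, and 0.59 with trends removed (edgeR adjusted p = 0.000293), against 0.09 ± 0.13 in TRIM28 knockdown (edgeR adjusted p = 0.654). TRIM28 knockdown was lower than PARP1 knockdown by a log2 difference of -0.60 ± 0.13 (edgeR adjusted p = 0.00233), in every fit without a library. The ratio per summed exon length of FANCG to FANCA, its partner in the core, was 5.39, 5.02 and 4.30 in TRIM28 knockdown. It was 5.95, 8.28 and 9.69 in PARP1 knockdown and 3.85, 4.19 and 4.43 in control. FANCA has 12316 bases of summed exons against 5451 in its longest transcript, so the size of the ratio rests in part on that length.

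UBE2T (ENSG00000077152, chromosome 1, 202331544 to 202341984, minus strand) stood at 72.7, 71.0 and 58.5 CPM in TRIM28 knockdown, at 67.8, 84.9 and 85.0 CPM in PARP1 knockdown and at 55.7, 58.5 and 59.3 CPM in control. PARP1 knockdown lay above all control libraries, while 1 TRIM28 knockdown library lay within the control range. It rose in PARP1 knockdown by 0.45 ± 0.13 on the log2 scale (edgeR adjusted p = 0.00548), 137% of control, with 0.42 after the trends were removed, and reached 0.22 ± 0.13 in TRIM28 knockdown (edgeR adjusted p = 0.226). FANCE, the core subunit that contacts FANCD2, had 25.9 ± 3.27 CPM in TRIM28 knockdown, 30.3 ± 0.257 CPM in PARP1 knockdown and 24.1 ± 0.980 CPM in control (SD, n = 3 each). Its rise in PARP1 knockdown, 0.33 ± 0.14, lay at the threshold (edgeR adjusted p = 0.04996). It was lost without control replicate 1 or 2 (adjusted p = 0.0857 and 0.11 by edgeR) and without PARP1 knockdown replicate 1, 2 or 3 (0.0647, 0.108 and 0.0639), and moved to 0.03 with trends removed.

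FANCC, a core subunit that pairs with FANCE (ENSG00000158169, chromosome 9, 95099054 to 95426796, minus strand), had 23.7, 22.7 and 24.4 CPM in TRIM28 knockdown, 21.3, 19.1 and 11.3 CPM in PARP1 knockdown and 28.0, 25.1 and 26.6 CPM in control. It fell in PARP1 knockdown by 0.62 ± 0.18 on the log2 scale (edgeR adjusted p = 0.00405). That change rested in part on PARP1 knockdown replicate 3, without which it was -0.39 (edgeR adjusted p = 0.0344), and it turned to 0.33 with trends removed (edgeR adjusted p = 0.122). The gene has 18465 bases of summed exons against 4592 in the longest transcript.

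The remaining core genes did not pass in either knockdown. FANCA, the largest core scaffold, had 26.4 ± 4.02 CPM in TRIM28 knockdown, 24.9 ± 4.06 CPM in PARP1 knockdown and 29.03 ± 1.38 CPM in control (SD, n = 3 each). FANCF, an adaptor of the core, had log2 fold changes of 0.21 ± 0.19 and 0.04 ± 0.19. FANCL, the ubiquitin ligase of the core, had 32 to 66 counts in TRIM28 knockdown, 31 to 40 in PARP1 knockdown and 57 to 75 in control, with log2 fold changes of -0.13 ± 0.28 and -0.11 ± 0.29. FANCB, which binds FANCL, and FANCM, the DNA translocase that anchors the core, had 5 to 31 counts per library and standard errors of 0.41 to 0.48.

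The substrate pair and the nuclease scaffold downstream of the core fell, 3 of 3, in both knockdowns, against 17.5% of all tested genes in TRIM28 knockdown and 32.2% in PARP1 knockdown. Once length and GC trends were removed, 1 of the 3, SLX4, passed as lower in each. FANCD2 (ENSG00000144554, chromosome 3, 10026370 to 10101932, plus strand) held 8.40, 6.54 and 8.56 CPM in TRIM28 knockdown, 5.43, 7.86 and 6.73 CPM in PARP1 knockdown and 17.4, 17.4 and 12.2 CPM in control. FANCI (ENSG00000140525, chromosome 15, 89243945 to 89317261, plus strand) held 5.67, 5.10 and 5.55 CPM in TRIM28 knockdown, 3.51, 6.77 and 5.94 CPM in PARP1 knockdown and 14.7, 14.3 and 8.11 CPM in control. For both genes every knockdown library was below every control library, and control replicate 3 was the lowest control.

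FANCD2 was at 50.04% of control in TRIM28 knockdown (log2 fold change -0.99 ± 0.20, edgeR adjusted p = 0.000789) and at 42.6% in PARP1 knockdown (-1.24 ± 0.21, edgeR adjusted p = 1.43e-05). FANCI was at 43.9% in TRIM28 knockdown (-1.18 ± 0.24, edgeR adjusted p = 0.000899) and at 43.6% in PARP1 knockdown (-1.21 ± 0.25, edgeR adjusted p = 0.00016). FANCI over FANCD2 per length was 0.448, 0.518 and 0.430 in TRIM28 knockdown, 0.429, 0.571 and 0.586 in PARP1 knockdown and 0.563, 0.546 and 0.443 in control, with overlapping groups. With length and GC trends removed neither passed, at -0.44 and -0.54 in TRIM28 knockdown (edgeR adjusted p = 0.0555 and 0.0517) and at -0.26 and -0.13 in PARP1 knockdown. Using the length of the longest transcript in place of summed exons, a choice made after seeing the data, they passed in TRIM28 knockdown (-0.49 and -0.69, edgeR adjusted p = 0.0406 and 0.0266) and not in PARP1 knockdown (-0.33 and -0.34).

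SLX4, the scaffold that holds structure-specific nucleases (ENSG00000188827, chromosome 16, 3581181 to 3611606, minus strand), had 10.8, 10.4 and 13.3 CPM in TRIM28 knockdown, 10.7, 6.43 and 6.73 CPM in PARP1 knockdown and 19.6, 23.0 and 20.4 CPM in control. The control libraries stood well above the others. The log2 fold change was -0.87 ± 0.19 in TRIM28 knockdown (edgeR adjusted p = 0.00146), 54.6% of control, and -1.39 ± 0.20 in PARP1 knockdown (edgeR adjusted p = 1.53e-06), 37.8% of control. It remained lower with trends removed, at -0.68 and -1.05 (edgeR adjusted p = 0.00464 and 4.36e-05). TRIM28 over PARP1 knockdown was 0.52 ± 0.20 and did not pass (edgeR adjusted p = 0.0574).

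Of the dissolution complex, which separates joined sister strands, and the RecQ helicase WRN, 0 of 5 genes passed in TRIM28 knockdown and 1 of 5 in PARP1 knockdown. RMI1, an accessory subunit (ENSG00000178966, chromosome 9, 83980798 to 84004074, plus strand), had 2.55, 1.12 and 1.87 CPM in TRIM28 knockdown, 0.729, 1.61 and 2.08 CPM in PARP1 knockdown and 3.37, 4.26 and 1.71 CPM in control. Control replicate 3 overlapped both knockdowns. It fell in PARP1 knockdown by 1.12 ± 0.40 on the log2 scale (edgeR adjusted p = 0.0174), lost without control replicate 1 or 2 or PARP1 knockdown replicate 1 (adjusted p = 0.059, 0.132 and 0.0941, edgeR). With the trends removed it was -0.96 (edgeR adjusted p = 0.04). BLM, the RecQ helicase of the complex, had 0.685, 0.797 and 0.422 CPM in TRIM28 knockdown, 0.464, 0.592 and 1.09 CPM in PARP1 knockdown and 1.395, 1.45 and 1.15 CPM in control. Despite groups without overlap it did not pass at 7 to 30 counts, with -1.08 ± 0.44 in TRIM28 knockdown (edgeR adjusted p = 0.0689) and -0.94 ± 0.45 in PARP1 knockdown (edgeR adjusted p = 0.0766).

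RMI2 and TOP3A, the other subunits, did not pass. RMI2 had 11.5 ± 0.441 CPM in TRIM28 knockdown, 10.9 ± 1.66 CPM in PARP1 knockdown and 11.2 ± 1.42 CPM in control (SD, n = 3 each). TOP3A, with 736 to 2027 counts per library, had log2 fold changes of -0.04 ± 0.15 and -0.20 ± 0.15. WRN, the other RecQ helicase, had -0.35 ± 0.37 and -0.19 ± 0.37.

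Trends over gene length separated the 3 groups, and those over base composition did so in part. The slope of log2 counts on summed exon length, per doubling and relative to the mean of all libraries, ran from -0.0244 to -0.00085 in TRIM28 knockdown, from -0.167 to -0.0968 in PARP1 knockdown and from 0.0725 to 0.203 in control. The slope on GC content, per 10 percentage points, ran from -0.112 to 0.0720 in TRIM28 knockdown, from 0.212 to 0.306 in PARP1 knockdown and from -0.379 to -0.0937 in control, so TRIM28 knockdown overlapped control. Ribosomal protein transcripts took 12.1% to 13.7% of counts in TRIM28 knockdown, 13.2% to 16.8% in PARP1 knockdown and 9.86% to 11.2% in control. The 39 genes are longer and poorer in GC than most, with a median of 7674 summed exon bases and 42.7% GC, against 5054.5 bases and 49.4% over all tested genes. Across all tested genes the log2 fold change had a Spearman rho with length of -0.41 in TRIM28 knockdown and -0.43 in PARP1 knockdown, and across the 39 genes of -0.11 and 0.01. With GC content it was 0.44 and 0.52 across all tested genes and 0.35 and 0.26 across the 39. These describe genes within the same libraries and are not independent points.

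With both trends removed, 2 of the 5 calls in TRIM28 knockdown kept their direction and call, EXO1 and SLX4, and CHEK2 and RAD51B passed as higher. In PARP1 knockdown 7 of 16 kept theirs: EXO1, SLX4, RAD54L, RMI1, XRCC3, FANCG and UBE2T. A further 8 genes passed as higher there: ATM, ATR, CHEK2, NBN, RAD51B, RAD51C, RAD51D and FANCL. The median over the 39 was 0.03 in TRIM28 knockdown and 0.16 in PARP1 knockdown in that fit. With the longest transcript as the length, the counts were 1 higher and 4 lower in TRIM28 knockdown, against 9.64% and 9.68% of all tested genes, and 9 higher and 4 lower in PARP1 knockdown, against 22.5% and 21.5%. Of the 8 genes named, FANCL, RAD51C, NBN and RAD51B did not pass in PARP1 knockdown with the longest transcript, at -0.15, 0.17, 0.30 and 0.42 (edgeR adjusted p = 0.644, 0.369, 0.268 and 0.0574). The source of the trends was not tested.

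**Figure D5:**
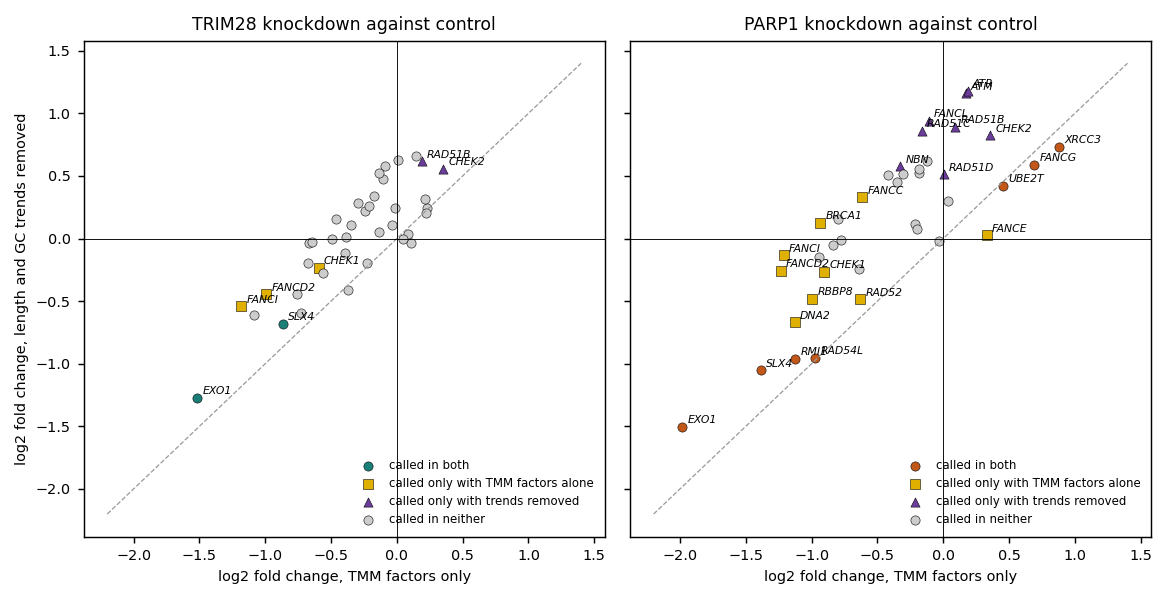
Log2 fold change against control of the 39 genes with TMM factors only (x axis) and with length and GC trends removed from each library (y axis), for TRIM28 knockdown on the left and PARP1 knockdown on the right; the dashed line marks equal values. Most points lie above the line, EXO1 and SLX4 remain lower in both panels, and XRCC3 and FANCG remain higher in PARP1 knockdown.

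Control replicate 3 stood nearer to the knockdowns than the other controls for these genes. The median deviation from the control mean over the 39 genes, in log2, was -0.17, -0.22 and -0.29 in TRIM28 knockdown, -0.34, -0.24 and -0.29 in PARP1 knockdown and 0.10, 0.07 and -0.11 in control. Over all tested genes it lay between -0.10 and 0.01 in every library, a value that TMM scaling keeps near 0. Over the G2/M genes listed further on, the controls were at 0.13, 0.08 and -0.29. Over the G1/S genes they were at -0.03, -0.04 and 0.08. The shift of control replicate 3 was thus not particular to the 39 genes. Control replicate 3 was the lowest control for 19 of the 39 genes (48.7%), against 42.2% of all tested genes, and had the smallest length slope of the controls. Without it, 0 genes were higher and 8 lower in TRIM28 knockdown, with RBBP8, NBN and RMI1 added, against 15.5% and 19.9% of all tested genes. In PARP1 knockdown 5 were higher and 13 lower, with MRE11, BARD1 and CHEK2 added and RAD52 lost, against 28.5% and 31.2%. The median over the 39 in TRIM28 knockdown became -0.15 when control replicate 1 was left out and -0.41 when TRIM28 knockdown replicate 1 was, and in PARP1 knockdown it became -0.19 when control replicate 1 was. Without control replicate 1, 0 genes were higher and 4 lower in TRIM28 knockdown, against 2.31% and 8.8% of all tested genes, and 3 were higher and 8 lower in PARP1 knockdown, against 23.8% and 25.8%.

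A second list held 70 other genes of the same pathways, of which 69 were found in the table and 65 passed the filter. In TRIM28 knockdown 6 of 65 rose and 15 fell (9.23% and 23.1%, median -0.26), and in PARP1 knockdown 18 rose and 22 fell (27.7% and 33.8%, median -0.32), against 10.3% and 17.5% of all tested genes in TRIM28 knockdown and 27.1% and 32.2% in PARP1 knockdown. With trends removed the counts were 5 (7.69%) and 9 (13.8%) in TRIM28 knockdown, against 10.8% and 10.6% of all tested genes. In PARP1 knockdown they were 18 (27.7%) and 17 (26.2%), against 24% and 22.7%. In TRIM28 knockdown 2 rose and 8 fell (3.03% and 12.1%) without control replicate 1, against 2.31% and 8.8% of all tested genes. There 9 fell (13.6%) without control replicate 2, against 10.2%. The largest subunit of the single-strand binding complex RPA, RPA1, had 115, 60.4 and 170 CPM as means of TRIM28 knockdown, PARP1 knockdown and control, and fell by 1.49 ± 0.18 in PARP1 knockdown on the log2 scale (edgeR adjusted p = 1.67e-07). RFWD3, a ubiquitin ligase that removes RPA, fell there by 1.74 ± 0.19 (edgeR adjusted p = 4.28e-08), and MDC1, the checkpoint mediator on damaged chromatin, by 1.28 ± 0.14 (edgeR adjusted p = 5.09e-08). In TRIM28 knockdown CDK12, a kinase that sustains transcription of long repair genes, fell by 1.29 ± 0.19 (edgeR adjusted p = 3.44e-05), WDR48, the cofactor of the FANCD2 deubiquitinase, by 1.398 ± 0.27 (edgeR adjusted p = 0.000545), and MDC1 by 0.68 ± 0.14 (edgeR adjusted p = 0.000857).

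Other accessory genes rose. MAD2L2, a shieldin and polymerase zeta subunit, was at 0.53 ± 0.14 in TRIM28 knockdown and 1.06 ± 0.14 in PARP1 knockdown (edgeR adjusted p = 0.00778 and 8.27e-07). BABAM1 of the BRCA1-A complex was at 0.62 ± 0.16 and 1.14 ± 0.16 (edgeR adjusted p = 0.00462 and 1.12e-06). ERCC1, a subunit of the crosslink unhooking nuclease, was at 0.56 ± 0.14 in TRIM28 knockdown (edgeR adjusted p = 0.00505), and CENPX, which anchors FANCM, at 1.28 ± 0.16 in PARP1 knockdown (edgeR adjusted p = 3.01e-07), a value that became 0.15 with trends removed.

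Many of the genes described peak in S and G2 phase, so 2 cell cycle lists are given beside them. Of 19 G1/S genes, 0 rose and 5 fell in TRIM28 knockdown and 7 rose and 7 fell in PARP1 knockdown. Of 17 tested G2/M genes, 2 rose and 6 fell in TRIM28 knockdown and 3 rose and 10 fell in PARP1 knockdown. The shares lower were 26.3% and 36.8% of the G1/S genes and 35.3% and 58.8% of the G2/M genes, against 17.5% and 32.2% of all tested genes. The shares higher were 0% and 36.8% of the G1/S genes and 11.8% and 17.6% of the G2/M genes, against 10.3% and 27.1%. The replicative helicase subunit MCM6 fell in both, by 1.202 ± 0.20 and 2.07 ± 0.21 on the log2 scale (edgeR adjusted p = 0.000105 and 1.84e-08), as did the loading factor CDC6, by 0.66 ± 0.17 and 1.25 ± 0.18 (edgeR adjusted p = 0.00688 and 1.92e-06). MCM4 fell likewise, at -0.51 ± 0.15 and -1.05 ± 0.15. TK1, thymidine kinase, rose in PARP1 knockdown at 0.78 ± 0.14, E2F1 at 0.72 ± 0.17 and GINS2, a helicase component, at 0.51 ± 0.14. The spindle factor TPX2 fell in both, at -0.95 ± 0.15 in TRIM28 and -1.85 ± 0.16 in PARP1 knockdown, and the checkpoint kinases BUB1 and BUB1B fell in both. The mitotic kinase PLK1 and the anaphase activator CDC20 rose in both, and AURKB rose in PARP1 knockdown. The median was -0.04 and -0.17 over the G1/S genes and -0.20 and -0.69 over the G2/M genes, in TRIM28 and PARP1 knockdown. With length and GC trends removed the G1/S counts were 0 higher and 3 lower (15.8%) in TRIM28 knockdown. In PARP1 knockdown they were 2 higher (10.5%) and 10 lower (52.6%). The G2/M counts were 1 higher (5.88%) and 5 lower (29.4%) in TRIM28 knockdown, and 1 higher (5.88%) and 8 lower (47.1%) in PARP1 knockdown. Shares of all tested genes in that fit were 10.8% higher and 10.6% lower in TRIM28 and 24% and 22.7% in PARP1 knockdown. In that fit TK1, E2F1, AURKB and CDC20 no longer rose in PARP1 knockdown and TK1 passed as lower, at -0.26 (edgeR adjusted p = 0.033), while MCM6, TPX2, BUB1 and BUB1B remained lower in both. The part of the cell cycle in the values of the 39 genes was not tested.

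Reads shared with neighbours may touch some of these values: the library kit keeps the strand, but no source used here gives the strand setting of the counting. Of the 40 genes, 14 overlap another tested gene, 4 of them on their own strand and 10 on the opposite strand only. XRCC3 overlaps KLC1 on the opposite strand over 16641 bases, and KLC1 had -0.24 ± 0.15 and -0.52 ± 0.16, the opposite direction to XRCC3. RAD54L overlaps LRRC41 over 17285 bases (0.28 ± 0.14 and 0.55 ± 0.14), also opposite in direction, and FANCI overlaps POLG over 12064 bases (0.22 ± 0.14 and 0.34 ± 0.14). Other opposite-strand neighbours had the sign of their gene. They were OSGIN2 with NBN (-0.56 ± 0.18 and -0.58 ± 0.19), VRK2 with FANCL (-0.89 ± 0.29 and -1.35 ± 0.31) and HSCB with CHEK2 (0.27 ± 0.15 and 0.58 ± 0.15). NBN also overlaps DECR1 (0.34 ± 0.13 and 0.19 ± 0.13), opposite in direction. These are examples, and the part of shared reads was not tested. CHEK1 shares 53 bases with STT3A on its own strand, BRCA1 and RAD52 each overlap a tested transcript without a symbol on their own strand, and RAD54B overlaps FSBP. Pseudogenes named after them are listed for 6 of the genes, CHEK2, MRE11, RBBP8, BRCA1, RAD52 and FANCD2. Those copies were listed at 0 counts in every library except the BRCA1 copy, with 0 to 3, so reads split between a gene and its copy cannot be seen here.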

How the data were processed

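RNA libraries of 9 samples of 786-O cells were read from 1 deposited table that holds a count and an FPKM value per gene and library. The submitters' processing notes name STAR 2.7.9a with the build GRCh38, featureCounts 2.0.1, Trim Galore 0.6.6, FastQC 0.11.9, R 4.0.3 and DESeq2 1.30.0, without the role of each. The deposited counts are whole numbers per gene and library, per the file headers. The authors' FPKM values, per the file headers, stand beside these counts and divide by the summed exon length; the strand setting of counting was not stated. Of the 61806 genes, 20417 have no symbol. The counts were tested as deposited with edgeR 4.0.16 in R 4.3.3: TMM factors, filterByExpr (minimum count 10, minimum total 15), 1 quasi-likelihood fit over the 9 libraries with 3 groups, 6 residual degrees of freedom and a common coefficient of variation of 0.149, two-sided tests and Benjamini-Hochberg adjustment over 13562 genes. Library slopes on length and GC use log2 CPM with a prior count of 2. FPKM was used only to order genes by level and, as log2(FPKM + 1) or log2(FPKM + 0.1), in limma 3.58.1, with a filter at 0.5 FPKM or none. Trends over summed exon length and GC content were removed by lowess with a span of 0.3, as offsets; GC content was known for 98.7% of tested genes.

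The 40 genes and the other lists were chosen with earlier results of these data known, so the lists have counts and medians and no test; 1 other pathway gene and 1 marker are not reported here. Values in every library are given, per role and comparison with control, for up to 2 genes past the threshold with the smallest adjusted p, or for the 1 with the smallest where none passed, and further genes were added after their values were seen. From each other list up to 3 genes per direction are named. Alternatives were DESeq2 1.42.0, its size factors, library totals, other filters and pseudocounts, the length and GC offsets, fits of 2 groups, a block for the replicate number and fits that leave out single libraries; offsets with the longest transcript as length were chosen after seeing the data. The same-numbered libraries deviated together, with a correlation over 0.1, in 2 of 9 pairs, and the 9 ran from -0.08 to 0.14. A pair of unlike number, TRIM28 knockdown replicate 3 and PARP1 knockdown replicate 1, reached 0.12. These values cannot settle whether the numbers pair the libraries, and the main fit used no block. No 2 libraries of the same group agreed within sampling noise, and pairs across groups were not checked. The scripts were tested on simulated data. Tables and plots were made in Python 3.11.15 with numpy 2.4.6, pandas 2.3.3, scipy 1.17.1 and matplotlib 3.10.9.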

Additional observations from a re-analysis of the deposited data

How the results depend on the processing

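Under the alternatives, of which the limma fits change the test, the measure and the genes tested and the block was also combined with the offsets, most of the calls on the 39 genes kept their direction and side of the threshold with DESeq2, its size factors, other count filters and the replicate block, and most changes came with the length and GC offsets and library totals. The cause was not tested. For all tested genes, the number higher in TRIM28 knockdown (1394) was 455 with library totals, 541 and 498 with limma on log2(FPKM + 1) and log2(FPKM + 0.1), 137 with limma and no filter and 2116 with only those 2 groups fitted. The number lower (2374) was 932 with limma and no filter, 1440 with length and GC trends removed, 1386 with the replicate block as well and 1313 with the longest transcript as length. In PARP1 knockdown the number higher (3681) was 2024 with library totals and 2140, 2134 and 1904 in the 3 limma fits. Between TRIM28 and PARP1 knockdown the number higher (1795) was 49 with limma and no filter, and 931, 981 and 903 with the trends removed, with the block as well and with the longest transcript; the number lower (1612) was 640 with library totals, 672, 679 and 14 with limma, and 927, 915 and 863 in those 3 trend fits.

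The limma fits with a filter hold 22 of the 39 genes, among 10795 tested, and limma without one holds all 40, so their values below are over those genes. Of the 39 genes in TRIM28 knockdown, the number higher (0) was 1 with DESeq2, 2 with the length trend removed, 2 with length and GC trends removed, 2 with the block as well and 1 with the longest transcript. The number lower (5) was 3 with limma and no filter, 8 with 2 groups fitted and 2 with the trends removed, with or without the block. Their median was -0.40 with library totals, -0.13 with limma and no filter, 0.0028 with the length trend removed, 0.033 with both trends removed, 0.034 with the block as well, and -0.0059 with the longest transcript. In PARP1 knockdown the number higher (4) was 2 with library totals and in each limma fit, 9 with the length trend removed, 11 with both trends removed, with or without the block, and 9 with the longest transcript. The number lower (12) was 21 with library totals, 4 with both trends removed, 3 with the block as well and 4 with the longest transcript. Their median was -0.27 with DESeq2 and with its size factors, -0.67 with library totals, -0.50 with limma on log2(FPKM + 0.1), -0.19 with limma and no filter, 0.029 with the length trend removed, 0.16 with both removed, with or without the block, and 0.061 with the longest transcript. Between the knockdowns the number higher (1) was 2 with DESeq2, 3 with library totals and 0 with limma and no filter, which also gave 0 lower. The median was 0.27 with library totals, 0.16 and 0.30 with limma on log2(FPKM + 1) and log2(FPKM + 0.1), -0.071 with the length trend removed, -0.18 with both removed, -0.19 with the block as well and -0.11 with the longest transcript.

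The limma fits hold 48, 48 and 69 of the other pathway genes, against 65 with edgeR. Of these genes in TRIM28 knockdown, the number higher (6) was 3 with limma on log2(FPKM + 0.1) and 0 with limma and no filter, and the number lower (15) was 4 with limma and no filter and 9 in each of the 3 trend fits. In PARP1 knockdown the number higher (18) was 10 with library totals and 11, 11 and 9 with limma, and the number lower (22) was 34 with library totals.

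Some genes changed sign in the trend fits in each comparison without passing in either fit. Sign changes of genes that passed in 1 or both of the fits compared were in PARP1 knockdown against control. NBN was at 0.58 with both trends removed and 0.57 with the block as well, and FANCL at 0.94 in both. BRCA1 was at 0.12, 0.093 and 0.18 with both trends removed, with the block and with the longest transcript. RAD51C was at 0.47 with the length trend removed, 0.86 with both and 0.87 with the block, and FANCC at 0.029, 0.33 and 0.33, with 0.12 for the longest transcript. FANCA was at 0.37 with the length trend removed, and XRCC2 at 0.60 and FANCE at -0.19 with the longest transcript.

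Leaving out 1 library at a time, all tested genes gave 320 (without control replicate 1) to 2154 (without control replicate 3) higher and 1217 to 2755 lower in TRIM28 knockdown, 3296 to 3961 higher and 3566 to 4486 lower in PARP1 knockdown, and 990 to 2465 higher and 664 to 2249 lower in TRIM28 than in PARP1 knockdown. The 39 genes gave 4 to 8 lower, with a median of -0.41 to -0.15, in TRIM28 knockdown. They gave 3 to 5 higher and 8 to 13 lower, with a median of -0.48 to -0.19, in PARP1 knockdown, and 0 to 5 higher and 2 to 3 lower, with a median of 0.027 to 0.15, between the knockdowns. The other pathway genes gave 2 to 9 higher and 8 to 18 lower in TRIM28 knockdown and 14 to 19 higher and 18 to 24 lower in PARP1 knockdown. With the replicate number as a block, 0 of the 39 were higher and 5 lower in TRIM28 knockdown, 5 higher and 12 lower in PARP1 knockdown, and 1 higher and 2 lower between them. Depth limits the low genes most: 9 of the 40 had fewer than 50 counts in every library, and standard errors of the 39 genes ran from 0.13 to 0.52 in PARP1 knockdown.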

Other observations

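Several of the genes share a start region with a neighbour on the opposite strand, and the neighbours moved in different ways. Taking the outer end of each gene record as its start, 14 of the 40 genes have such a tested partner within 1000 bases. TOP3A, with log2 fold changes of -0.04 ± 0.15 in TRIM28 knockdown and -0.20 ± 0.15 in PARP1 knockdown, starts 286 bases from SMCR8, a partner of C9orf72 in autophagy. SMCR8 averaged 22.03 CPM in TRIM28 knockdown, 14.6 CPM in PARP1 knockdown and 52.3 CPM in control, and fell by 1.24 ± 0.18 and 1.83 ± 0.19 on the log2 scale (edgeR adjusted p = 2.45e-05 and 2.19e-08). The outermost start of BRCA1 lies 236 bases from NBR1, an autophagy receptor, which fell in both knockdowns. NBR1 was at -0.70 ± 0.16 in TRIM28 and -1.43 ± 0.17 in PARP1 knockdown (edgeR adjusted p = 0.00286 and 1.66e-07). Another annotated BRCA1 start, in the window chr17:43125315-43125614, lies more than 1000 bases inside the gene. NBR2, which overlaps BRCA1 on the opposite strand over 28121 bases, was at 0.45 ± 0.39 and 0.21 ± 0.41 and did not pass. The outermost start of RAD52 lies 456 bases from ERC1, a scaffold protein, which fell by 1.04 ± 0.24 and 1.42 ± 0.25 (edgeR adjusted p = 0.00268 and 2.81e-05). Another annotated RAD52 start, in the window chr12:949645-949944, lies more than 1000 bases inside the gene.

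Other partners rose. XRCC3 starts 226 bases from ZFYVE21, a gene of endosomes and cell adhesion, at 0.47 ± 0.14 in TRIM28 knockdown and 0.67 ± 0.14 in PARP1 knockdown (edgeR adjusted p = 0.0146 and 0.000257), so in PARP1 knockdown both genes rose. FANCD2 overlaps the start of the pseudogene CIDECP1, which averaged 19.9 CPM in TRIM28 knockdown, 27.2 CPM in PARP1 knockdown and 14.8 CPM in control. CIDECP1 rose by 0.43 ± 0.16 and 0.88 ± 0.16 (edgeR adjusted p = 0.0446 and 3.87e-05), while FANCD2 fell in both knockdowns. DNASE1, which starts 122 bases from SLX4, was at -0.30 ± 0.27 and 0.25 ± 0.26 and did not pass. The remaining pairs are not described, and these were chosen after their values were seen.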
